A study of Saccharomyces cerevisiae with 12 samples.

Results

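The comparison described here is of fhf1, a UV-induced mutant of the Saccharomyces cerevisiae strain Y55, with the wild-type Y55 it came from. Its members are the 6 cultures that the sample titles name as fhf1 (3 cultures) or wild type (3 cultures), of 12 cultures in the series, and the genes are all those with a fold change for fhf1, 5777 of 5880 rows in the authors' deposited table. Values of the single arrays were used for 5769 of these genes. All 4 strains of the series are labelled MAT-alpha MAL1 SUC1 in the JT20150 background, and the other two mutants, fhf2 and fhf3, are UV-induced as well. The labels describe each mutant as fast-fermenting on maltose. Cells were taken on day 2 of stirred, semi-aerobic 200 mL fermentations at 22 °C in rich medium (yeast extract and peptone) with 20% maltose. The comparison asks which transcripts differ between a mutant that ferments faster and its parent. Each mutant is a single isolate in the labels, and the mutated genes are not named in the labels or files, so there was no targeted transcript to set against the label. All strains were sampled on the same day, so a difference between the strains and a difference in the stage reached by the fermentation cannot be told apart.

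In yeast, maltose is carried into the cell by a maltose permease, split by maltase into glucose, and the glucose is phosphorylated by hexokinase or glucokinase before it enters glycolysis. Free glucose represses the genes for other carbon sources through the repressor Mig1 and the kinase Snf1. As sugar and nitrogen run down, cells slow ribosome synthesis, switch on genes for poor nitrogen sources and for non-fermentable carbon, and leave the cell cycle.

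The signal of an array is a log2 value per gene, summarised by the authors from 8 probes per gene. The 12 arrays had not been brought to a common level: the median log2 signal was 12.84, 12.15 and 12.85 in the fhf1 cultures and 12.30, 12.98 and 12.53 in the wild-type cultures. The means of these medians differed by 0.0097 between fhf1 and wild type, so fold changes between the 2 groups hardly depend on the array level, but their errors do. The median standard error of a log2 fold change was 0.264 on the values as deposited and 0.133 after each array was centred on its median. limma draws each gene's variance over the 12 arrays towards a value shared by all genes. As deposited, this shared value carried 177.8 degrees of freedom against 8 residual ones (10.25 after centring). The standard error as deposited ran from 0.261 to 0.27 between the 5th and 95th percentile of genes, so it hardly reflects a gene's own spread. The test on the values as deposited, which had been planned as the main one, is the basis of every "rose" and "fell" below, and the counts after centring are given beside those of the lists. Over all genes, 0.589% rose and 2.08% fell as deposited, while 7.31% were called higher and 9.55% lower after centring. A list count near these shares says nothing about the list. Genes described one by one were mostly chosen among calls whose groups do not overlap, so for them a statement that the groups were apart describes the choice and supports nothing. The labels say that the cultures of a strain were separate. They also speak of triplicate hybridisation, and whether repeat hybridisations were averaged is not settled.

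On the mating type label, the alpha-specific STE3, the receptor for a-factor, had log2 signals of 13.65, 13.15 and 13.97 in fhf1 and 13.04, 13.74 and 13.43 in wild type. MF(ALPHA)1, the main alpha-factor gene, had 13.95, 13.98 and 14.61 in fhf1 and 13.47, 14.55 and 13.56 in wild type. The fhf1 and wild-type values overlapped for both genes. None of the 22 a-specific, alpha-specific and haploid-specific markers was called in either direction on the values as deposited, and 4 of them were called after centring (SAG1, MFA1 and RME1 lower, ASG7 higher). The a-specific genes had signal as well, MFA1 from 10.96 to 13.02 and AGA2, an agglutinin subunit, from 9.07 to 10.09 over the 6 cultures, and the files hold no call of which signals exceed background.

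Of the 5769 genes, 154 (2.67%) differed between fhf1 and wild type at a Benjamini-Hochberg adjusted p under 0.05 in limma's moderated test across all 12 arrays. Of these, 34 (0.589%) rose and 120 (2.08%) fell. The 3 fhf1 cultures and the 3 wild-type cultures did not overlap in 126 of the 154. This largely follows from calling large differences on the same cultures and supports nothing. Over all genes, groups without overlap made up 4.91% (1.27% with fhf1 higher, 3.64% with fhf1 lower, and 29.7% in all after centring). After centring, 973 genes (16.9%) were called, 422 (7.31%) higher and 551 (9.55%) lower, and all 154 were among them. All 154 were also called after quantile normalization and after cyclic loess. Of the changes larger than 1 on the log2 scale, 88 were falls and 25 were rises. Leaving out each of the 6 cultures in turn gave from 109 to 236 genes, with 236 without replicate 1 of wild type. The excess of falls turned over without replicate 2 of fhf1 (107 higher, 60 lower) and without replicate 2 of wild type (102 higher, 74 lower), the arrays with the lowest and the highest median. Of the 154 calls, 70 held without any 1 culture and 84 were lost without at least 1. The median log2 fold change over all genes was 0.05, and it changed with signal, from -0.10 among genes with a mean signal between 10 and 11 to 0.22 among those above 14. After cyclic loess, which removes such a trend, both values lay within 0.04 of 0.

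**Figure D1:**
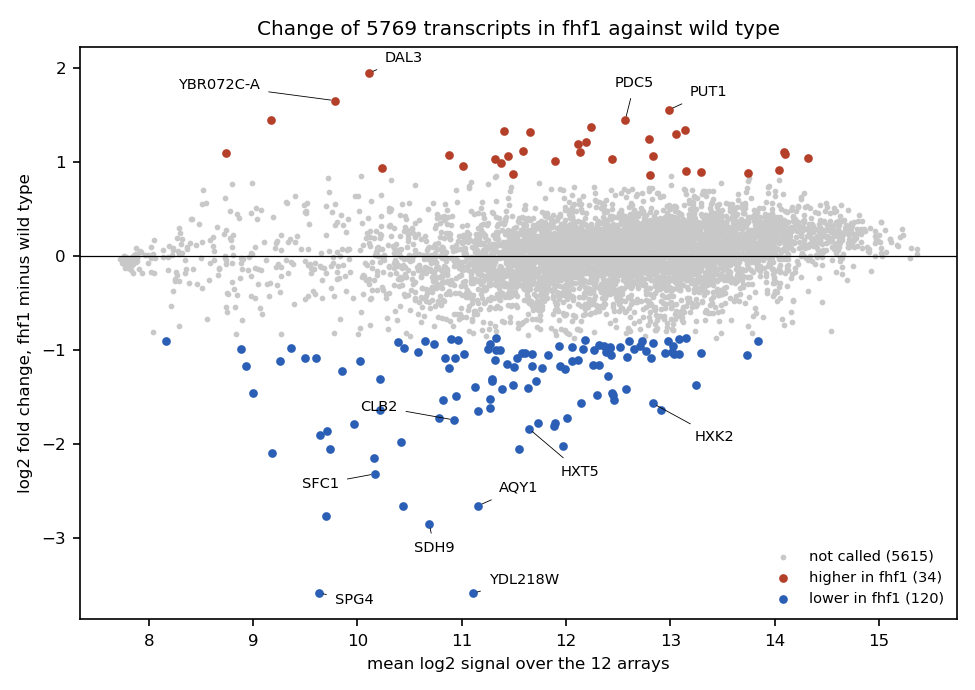
Log2 fold change of fhf1 over wild type (vertical axis) against the mean log2 signal over the 12 arrays (horizontal axis), 1 point per gene, for 5769 genes. Red points are the 34 genes that rose and blue points the 120 that fell. Every point more than 2 from 0 is blue, with SPG4 and YDL218W both at -3.59.

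Genes of stationary phase and of respiratory carbon use were among the largest falls. YDL218W, an uncharacterised gene, had log2 signals of 10.70, 9.68 and 10.37 in fhf1 and 13.60, 14.11 and 13.80 in wild type. All fhf1 cultures lay far below all wild-type cultures, and the gene fell by 3.59 ± 0.26 (adjusted p = 5.51e-26), a 12.0-fold difference. Here and below, ± gives limma's moderated SE for 3 cultures against 3, which is nearly the same for all genes. After centring, limma's adjusted p for YDL218W was 4.7e-13. SPG4, known for survival at high temperature in stationary phase, had 9.14, 8.41 and 9.40 against 12.12, 13.15 and 12.45 and fell by 3.59 ± 0.27 (adjusted p = 9.82e-26). These were also the only genes of the 154 that fell by over 3.

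SDH9, a minor isozyme of the flavoprotein of succinate dehydrogenase, had 11.25, 9.76 and 10.51 in fhf1 and 13.19, 13.44 and 13.45 in wild type, a log2 change of -2.86 ± 0.27 (adjusted p = 7.15e-18). AQY1, an aquaporin of the plasma membrane that is best known from spores, had 12.16, 10.24 and 11.50 against 13.64, 14.25 and 13.98, a log2 change of -2.66 ± 0.27. SFC1, which exchanges succinate for fumarate across the mitochondrial inner membrane, had 9.89, 8.99 and 9.77 against 11.67, 12.05 and 11.90, a log2 change of -2.32 ± 0.26. In these genes fhf1 replicate 2 was the lowest of the 6 cultures as deposited, and its array also had the lowest median of the 6 (12.15). SPS100, a spore wall gene, fell by 2.06 and SPG1, another stationary-phase gene, fell by 2.02.

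The other 5 of the 12 largest falls, in genes whose role is not described here, were in YCL048W-A (log2 change -2.77), DPA10 (-2.66), YKL107W (-2.15), YKL106C-A (-2.09) and ECM12 (-2.05). YKL107W and YKL106C-A are neighbours on their chromosome. ECM12 overlaps YHR022C in the R64 annotation, and since the labelled material was double-stranded cDNA, the signals of these overlapping genes cannot be told apart. The 12 falls held without any 1 of the 6 cultures. Tested against a 2-fold change instead of against no change, 11 genes (0.191%) were called, all lower: they are the 12 largest falls without SPG1. The authors' deposited table calls the same 11 genes (0.19% of its rows with values) for fhf1, from an adjusted p of 3.29e-15 for YDL218W to 0.0276 for SPS100 and ECM12. Without replicate 2 of fhf1 this stricter test called 5 genes, and without replicate 1 of wild type it called 17.

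**Figure D2:**
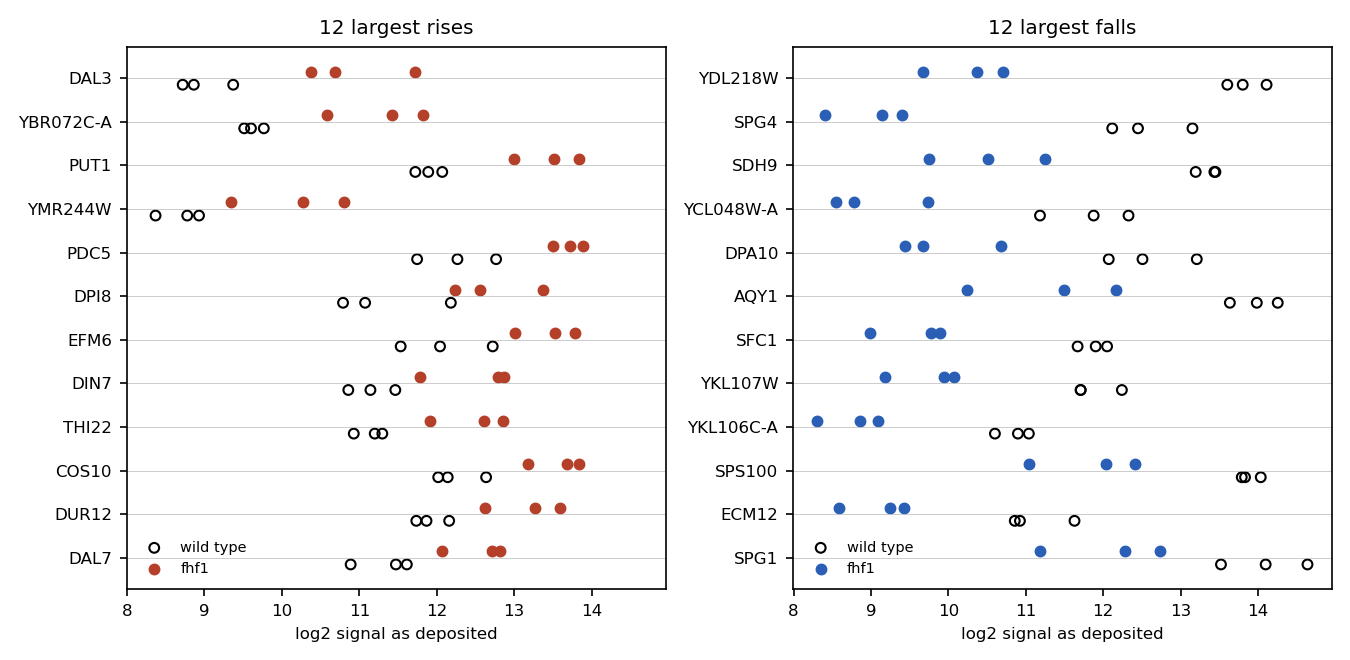
Log2 signal as deposited (horizontal axis) in each culture for the 12 genes with the largest rise (left) and the 12 with the largest fall (right) whose groups did not overlap. Open circles are the 3 wild-type cultures and filled circles the 3 fhf1 cultures. The genes were chosen for groups that do not overlap, so the separation itself is given by the choice. Its width differs between genes and is smallest for DPI8, where the lowest fhf1 culture is at 12.24 and the highest wild-type culture at 12.18.

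Genes for poor nitrogen sources were among the largest rises. DAL3, the enzyme that splits ureidoglycolate in allantoin breakdown, had 10.69, 10.37 and 11.72 in fhf1 and 8.72, 9.37 and 8.86 in wild type, a rise of 1.95 ± 0.27 (adjusted p = 5.6e-09) or 3.85-fold. PUT1, proline oxidase, had 13.51, 13.00 and 13.83 against 11.72, 12.07 and 11.89, a rise of 1.56 ± 0.26 (adjusted p = 2.69e-06). In both genes all fhf1 cultures lay above all wild-type cultures. DUR12, the urea amidolyase, rose by 1.24 and DAL7, a malate synthase of allantoin use, by 1.21.

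Of 11 measured genes of allantoin and urea use, 3 rose (DAL3, DUR12 and DAL7) and none fell, also after centring and without any 1 culture, and the median of the 11 was 0.31. Of 32 genes for proline and ammonium use, other permeases of poor nitrogen sources and the GATA regulators, 3 rose and none fell, with a median of 0.21. Besides PUT1 these were GDH1, the NADP-dependent glutamate dehydrogenase (1.08 higher), and MEP3, an ammonium permease of low affinity (1.04 higher). The calls of GDH1 and MEP3 were lost without replicate 1 of fhf1 and without replicate 3 of wild type, each of which left 1 of the 32, and MEP3 also without replicate 1 of wild type, which left 2. After centring 8 of the 32 were called higher, among them MEP2, the high-affinity ammonium permease, and 1, ASP1 (an asparaginase), was called lower. AGP1, a broad amino acid permease, had 14.55, 14.31 and 14.79 in fhf1 against 12.96, 13.84 and 13.52, a rise of 1.11 ± 0.26, and was the only one of 22 amino acid permeases called. After centring 2 of the 22 were called higher and 3 lower. CHA1, which deaminates serine and threonine and is switched on by them, rose by 1.06 ± 0.27 (adjusted p = 0.00571), but this call was lost without replicate 1 of fhf1 and without replicate 3 of wild type. None of 63 amino acid synthesis genes was called on the values as deposited. At an unadjusted p under 0.05 limma gave 6 of the 63, beside 539 of all 5769 genes. After centring 4 of the 63 were called higher and 8 lower, near the 7.31% and 9.55% of all genes.

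PDC5 was the only rise among the enzymes of alcoholic fermentation. It encodes a minor pyruvate decarboxylase, the enzyme that turns pyruvate into acetaldehyde. Its log2 signals were 13.72, 13.50 and 13.89 in fhf1 and 11.75, 12.77 and 12.27 in wild type, a rise of 1.44 ± 0.26 (adjusted p = 2.07e-05) or 2.72-fold. As deposited, the fhf1 cultures were within 0.39 of each other and above every wild-type culture. In the same list of 17 genes the aldehyde dehydrogenases ALD2 and ALD3, which are stress-induced, had log2 changes of -1.48 and -1.08, and the call of ALD3 was lost without replicate 2 of fhf1. After centring 2 of the 17 were called higher and 3 lower. None of the 10 upper and 13 lower glycolysis genes was called by limma, 1 and 2 had an unadjusted p under 0.05, and the medians were 0.20 and 0.09. After centring 1 upper gene was called higher and 2 of the lower part were called lower. After cyclic loess these medians were 0.02 and -0.14, so that the lower glycolysis genes have no settled direction.

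**Figure D3:**
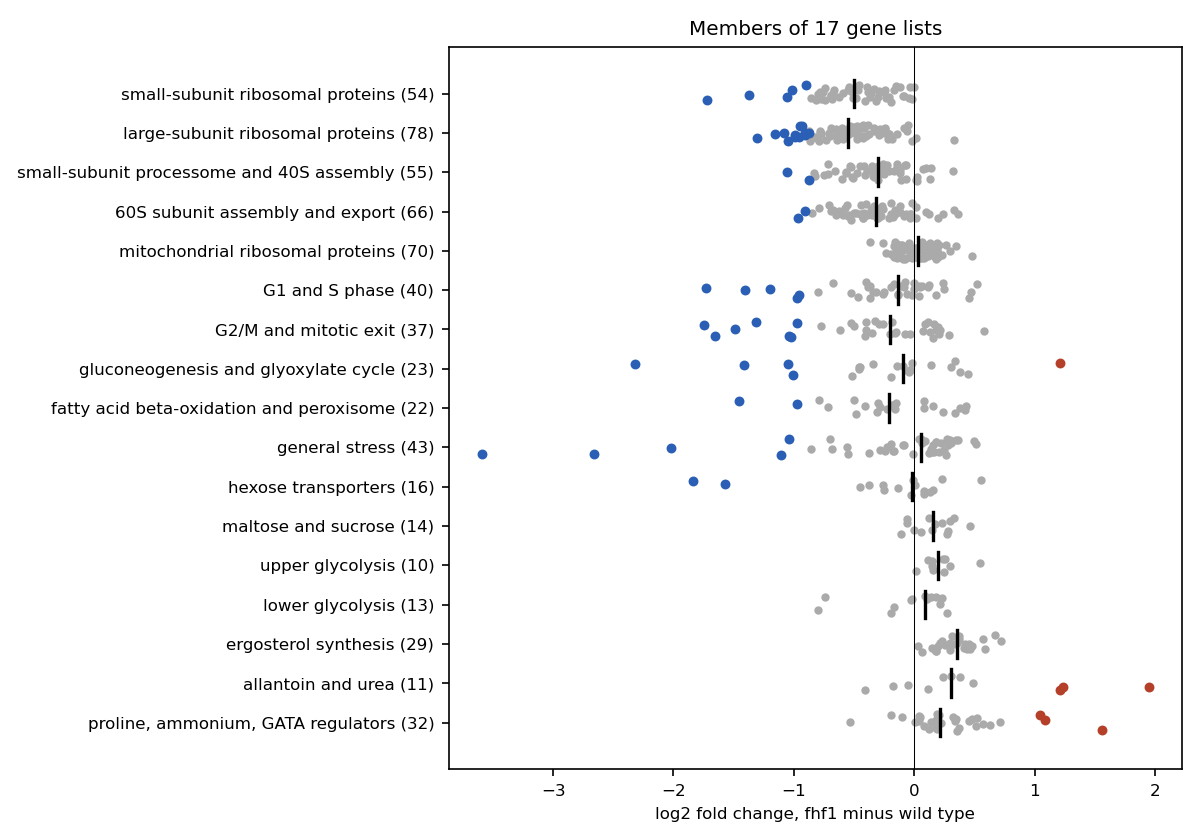
Log2 fold change of fhf1 over wild type (horizontal axis) for each measured member of 17 gene lists, with the number of members in brackets. Coloured points passed the test (red higher, blue lower), grey points did not, and the black bar is the list's median. Nearly all cytosolic ribosomal protein genes lie left of 0, mitochondrial ones centre on 0, and the called points of the nitrogen lists lie on the right.

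In the first steps of sugar use, 1 kinase and 2 transporters fell. HXK2, the hexokinase that predominates on glucose and takes part in glucose repression, had 11.97, 11.00 and 11.70 in fhf1 and 12.81, 13.78 and 12.79 in wild type, a log2 change of -1.57 ± 0.27 (adjusted p = 4.15e-06). The other 4 sugar kinases (HXK1, GLK1, EMI2 and GAL1) had log2 fold changes from 0.08 to 0.23 and were not called. HXT3, a low-affinity glucose transporter, had 11.63, 10.93 and 11.58 against 12.64, 13.34 and 12.86, a log2 change of -1.57 ± 0.26. HXT5, a transporter of slow-growing cells, had 11.75, 10.87 and 11.60 against 13.16, 13.47 and 13.11, a log2 change of -1.84 ± 0.26. All 3 falls held without any 1 culture. In all 3 genes fhf1 replicate 2 was the lowest culture as deposited, and its array also had the lowest median of those compared (12.15).

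The other 14 hexose transporter genes were not called, with log2 fold changes from -0.45 for HXT4 to 0.55 for HXT10, and after centring HXT4 was called lower and HXT10 higher. The high-affinity transporters HXT6 and HXT7, which are nearly identical in sequence and cannot be told apart with confidence, had changes of -0.01 (95% interval -0.52 to 0.51) and 0.15 (-0.36 to 0.67). Of 14 maltose and sucrose genes none was called by limma, and none had an unadjusted p under 0.05. Among them MAL11, MAL13 and YPR196W had mean log2 signals from 7.76 to 7.84 in both strains. These were the lowest of the sugar genes examined, so a change in them could have gone unseen. The strains are labelled MAL1, and whether probes that follow another strain's genome read their MAL copies was not tested. The maltose permease gene MAL31 had 15.17, 14.91 and 14.96 in fhf1 and 14.61, 15.06 and 14.69 in wild type, a difference of 0.23 with an interval of -0.28 to 0.75. The maltase genes MAL12 and MAL32 differed by 0.28 (interval -0.24 to 0.79) and 0.33 (-0.18 to 0.84), and the MAL activator MAL33 by 0.30 (-0.22 to 0.82). For these near-identical gene copies of an array designed on another strain, S288C, how far they share signal was not tested. ZNF1, a regulator active in respiratory growth and listed here with the maltose genes, had 0.46 and was called higher after centring but not after cyclic loess. SUC2, invertase, had 0.06 (-0.46 to 0.58).

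**Figure D4:**
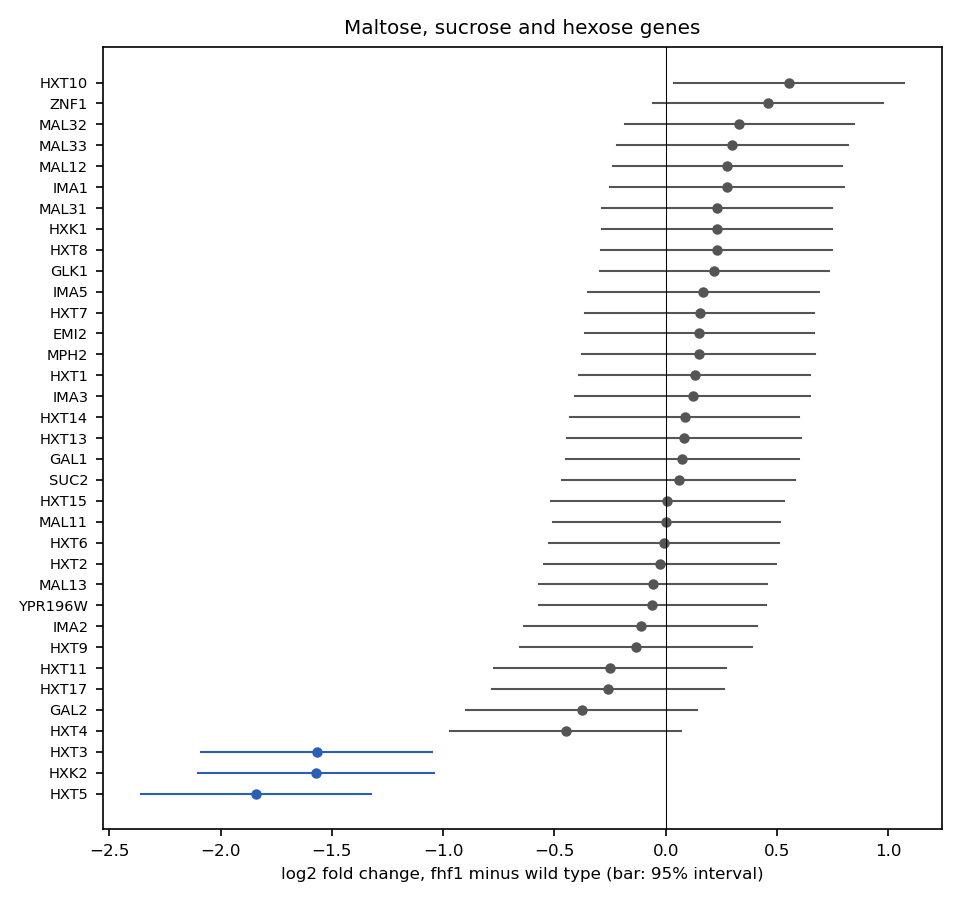
Log2 fold change of fhf1 over wild type with its 95% interval (horizontal axis) for all 35 measured genes of maltose and sucrose use, hexose transport and sugar phosphorylation, ordered by size. HXT3, HXK2 and HXT5, in blue, passed the test, and their intervals end at or below -1.04. The other 32 were not called.

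In the lists of regulators of the glucose response below, 1 of 26 and 1 of 20 genes were called, beside 2.67% of all genes. Single calls do not describe either list as a whole. MIG1, the glucose repressor, had 10.56, 10.18 and 10.89 in fhf1 and 11.49, 12.08 and 12.07 in wild type, a log2 change of -1.33 ± 0.26 (adjusted p = 0.000108), and was the only one of 26 glucose sensing and repression genes called. RAS1, a GTPase upstream of adenylate cyclase, had 9.86, 9.16 and 10.09 against 10.89, 11.91 and 11.24, a log2 change of -1.64 ± 0.27, and was the only one of 20 genes of protein kinase A and stress signalling called. Both calls held without any 1 culture, and after centring 2 genes of each list were called lower and none higher. None of the 8 genes of the Snf1 kinase complex and its upstream kinases was called by limma on the values as deposited. TOS3, 1 of those kinases, was called higher after centring and was the only one with an unadjusted p under 0.05.

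Some genes for non-fermentable carbon fell. In a list of 23 for gluconeogenesis, the glyoxylate cycle and their carriers, 4 fell and 1 rose, and the median was -0.09. After centring 8 were called lower and 1 higher. The falls were SFC1, PCK1 (phosphoenolpyruvate carboxykinase, the first committed step of gluconeogenesis, log2 change -1.41), MAE1 (mitochondrial malic enzyme, log2 change -1.05) and MLS1 (malate synthase of the glyoxylate cycle, log2 change -1.01). The rise was DAL7, already counted with allantoin use. The calls of MAE1 and MLS1 were lost without replicate 3 of wild type, which left 2 falls, and MLS1 also without replicate 2 of fhf1. PCK1 had 11.85, 10.82 and 11.52 in fhf1 and 12.62, 12.87 and 12.95 in wild type. Of 22 genes of beta-oxidation and peroxisomes, POT1 (3-ketoacyl-CoA thiolase, log2 change -1.46) and ANT1 (the peroxisomal adenine nucleotide carrier, log2 change -0.97) fell and none rose. ANT1 was lost without replicate 2 of fhf1 and without replicate 2 or 3 of wild type, and after centring 6 of the 22 were called lower and 2 higher. NDE2, an external NADH dehydrogenase of mitochondria, fell by 1.77 ± 0.27 and was the only one of 38 respiratory chain and ATP synthase genes called, a share close to that of all genes. After centring 3 of the 38 were called higher and 1 lower. SDH9 was the only one of 17 genes of the citric acid cycle called, also after centring. The medians of those lists were 0.14 and 0.11 and were -0.03 and -0.08 after cyclic loess, so neither list has a settled direction.

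Of 43 general stress genes 5 fell and none rose, beside falls in 2.08% of all genes. The list's median was 0.05, equal to that of all genes, and -0.13 after cyclic loess. After centring 10 of the 43 were called lower and 3 higher. The 5 were SPG4, AQY1, SPG1, FMP16 (a stress-induced mitochondrial protein, log2 change -1.11) and HBT1 (log2 change -1.04). FMP16 and HBT1 were lost without replicate 2 of fhf1, which left 3, and FMP16 also without replicate 2 of wild type, which left 4. SSA3, an Hsp70 chaperone of stationary phase, had 12.67, 11.83 and 12.52 against 13.73, 14.14 and 13.76, a log2 change of -1.54 ± 0.26, and was the only one of 28 chaperone genes called. After centring 2 of the 28 were called lower and 1 higher. GLG2, a glycogenin that primes glycogen, fell by 1.15, the only call among 22 trehalose and glycogen genes, of which 2 were called lower and none higher after centring. None of 30 antioxidant genes and none of 33 proteasome genes passed limma's test, and 2 and 0 had an unadjusted p under 0.05. After centring 1 antioxidant gene was called higher and 2 lower, and 2 proteasome genes were called higher.

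Ribosomal protein genes lay low as a group. Of 54 measured genes of the small subunit 5 fell and none rose, with a median of -0.50, and all 54 had a mean in fhf1 below that in wild type. Of 78 genes of the large subunit 12 fell and none rose, with a median of -0.55, and 76 had the lower mean in fhf1. After centring 30 of 54 and 50 of 78 were called lower, and after cyclic loess 37 and 56. The counts on the values as deposited depended on single arrays. Without replicate 1 or 2 of fhf1 or replicate 2 of wild type 2 small-subunit genes were called, and without replicate 3 of fhf1 or replicate 1 of wild type 17. For the large subunit the counts without replicates 1, 2 and 3 of fhf1 were 1, 0 and 26, and those without replicates 1, 2 and 3 of wild type were 34, 1 and 5. Relative to each array's median gene, the large-subunit genes had a median of -0.88, -0.51 and -0.28 in the fhf1 cultures and -0.15, 0.22 and -0.05 in the wild-type cultures, each measured from the wild-type mean. All fhf1 cultures were thus below all wild-type cultures on this measure, with a wide spread among them.

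RPS22A had 10.77, 10.57 and 11.49 in fhf1 and 12.00, 13.38 and 12.63 in wild type, a log2 change of -1.72 ± 0.27 (adjusted p = 3.09e-07). RPS26B had 12.01, 12.04 and 13.00 against 13.26, 14.50 and 13.41, a log2 change of -1.37 ± 0.27. The calls of the large-subunit genes RPP2A (log2 change -1.04) and RPL15A (log2 change -0.87) were lost without some single cultures. Most ribosomal protein genes have a near-identical second copy, and a probe may read both.

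For factors that build ribosomes the shares that fell, 2 of 55 and 2 of 66 genes, were near the 2.08% of all genes. NSR1 (nucleolin, log2 change -1.06) and UTP21 (a subunit of the small-subunit processome, log2 change -0.88) fell among 55 genes of 40S assembly. HAS1, a helicase that acts on both subunits (log2 change -0.96), and NHP2, a snoRNP protein (log2 change -0.91), fell among 66 genes of 60S assembly and export. The medians of these lists were -0.30 and -0.31, and after centring 19 and 23 members were called lower and none higher. RPA49 (log2 change -1.05) and RPA43 (log2 change -0.89), both subunits of RNA polymerase I, fell among 28 genes of RNA polymerases I and III, of which 7 were called lower and 1 higher after centring. Without replicate 2 of wild type, 0 of the 60S assembly and polymerase genes were called, and without replicate 3 of fhf1 the 3 lists had 5 calls each. None of 70 mitochondrial ribosomal protein genes was called by limma, none had an unadjusted p under 0.05, 1 was called higher after centring, and their median was 0.03.

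IMD3, an IMP dehydrogenase of the guanine nucleotide pathway, had 10.85, 10.25 and 10.84 in fhf1 and 12.05, 12.86 and 12.36 in wild type, a log2 change of -1.78 ± 0.26 (adjusted p = 5.98e-08). It was the only one of 19 purine genes called. After centring its paralogue IMD4 and GUA1, the next enzyme towards GMP, were also called lower, while ADE1, ADE2 and ADE17 of the common purine pathway were called higher, of which ADE2 was so after cyclic loess too. RKI1, ribose-5-phosphate isomerase, fell by 1.19 ± 0.26 and was the only one of 15 pentose phosphate genes called, with 3 called lower and 1 higher after centring. URA7, a CTP synthase, fell by 0.90 among 25 inositol and phospholipid genes, a call that held only without replicate 3 of fhf1 or replicate 1 of wild type when a culture was left out. After centring 2 of the 25 were called lower and 4 higher.

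Some genes of G1 and S phase and of mitosis fell. Of 40 genes of G1 and S phase 5 fell and none rose (median -0.14). Of 37 genes of G2/M and mitotic exit 7 fell and none rose (median -0.21), while 2.08% of all genes fell. PCL1, a G1 cyclin of the kinase Pho85, had 9.75, 9.83 and 9.59 in fhf1 and 11.05, 11.96 and 11.35 in wild type, a log2 change of -1.73 ± 0.27 (adjusted p = 2.33e-07). CLB2, the main mitotic cyclin, had 10.09, 10.53 and 10.26 against 11.38, 12.75 and 11.99, a log2 change of -1.75 ± 0.27. As deposited, the fhf1 values of both genes were close together and all below those of wild type. The medians of the fhf1 arrays were 12.84, 12.15 and 12.85, and relative to these the 3 cultures lie further apart. MCD1 (cohesin, log2 change -1.40), YHP1 (a repressor of early G1 genes, log2 change -1.20), YOX1 (its paralogue, log2 change -0.97) and CLN2 (a G1 cyclin, log2 change -0.95) were the other G1 and S phase genes called. At G2/M, SWI5 (an activator of late mitosis, log2 change -1.65), CLB1 (log2 change -1.49), HOF1 (which acts in cytokinesis, log2 change -1.31) and CHS2 (the chitin synthase of the septum, log2 change -1.03) were among the called. Without replicate 2 of wild type 3 genes of G1 and S phase and 4 of G2/M were called, and without replicate 3 of wild type 3 and 6. After centring 10 of 40 and 14 of 37 were called lower, and 3 and 1 higher. EGT2 and DSE4, which act in the separation of daughter cells, had log2 changes of -1.11 and -0.94 among 14 genes of that group, where no call held without replicate 2 of fhf1 and 5 were called lower after centring. No histone gene was called by limma out of 10, of which 2 had an unadjusted p under 0.05 and 1 was called lower after centring.

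Of 41 meiosis and sporulation genes 5 fell and 1 (SPS1, a kinase of spore formation, 0.94 higher) rose, and the rise was lost without replicate 1 or 3 of fhf1 and without replicate 3 of wild type. After centring 7 of the 41 were called lower and 5 higher. IME1, the activator of meiosis, fell by 1.09, and REC114 and REC102, which act in meiotic recombination, had log2 changes of -1.48 and -1.09. Among 23 thiamine and pyridoxine genes THI4, which makes the thiazole part of thiamine, fell by 1.91 ± 0.26 and PHO3, a phosphatase of thiamine uptake, fell by 1.53 ± 0.27, while THI22, a relative of the pyrimidine kinases, rose by 1.32 ± 0.26, and after centring 3 of the 23 were called lower and 2 higher. In the cell wall list of 34 genes, CWP1, a mannoprotein, fell by 1.62 and CHS2 is counted again, and after centring 5 were called lower and 1 higher. ELO2, a fatty acid elongase, fell by 1.38 ± 0.27. Among 32 genes of the pheromone response PRM6, PRM5 and FIG1 fell, with log2 changes of -1.17, -0.99 and -0.98, and PRM1 rose by 1.07. PRM1 was lost without replicate 1 or 3 of fhf1, and PRM5 and FIG1 without replicate 2 of fhf1 or of wild type. Without either replicate 2, 1 gene of the list fell. After centring 7 of the 32 were called lower and 3 higher.

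None of 29 ergosterol synthesis genes was called by limma on the values as deposited, 4 had an unadjusted p under 0.05, and all 29 had a higher mean in fhf1. Their median was 0.36, beside 0.05 over all genes. The list is bright, with a median signal of 14.49, and genes with a mean signal above 14 had a median change of 0.22. After centring 11 of 29 were called higher, and 4 after cyclic loess, where the median was 0.16. Among the 11 were ERG8 and MVD1 of the mevalonate pathway and UPC2, the sterol regulator.

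The response of fhf1 was then set beside those of the other two mutants. The mutants share the wild-type cultures, so their fold changes are only given side by side, and how fhf1 differs from them was tested directly, where wild type cancels. For fhf2 and fhf3, "rose", "fell" and "called" refer to the same limma test against wild type. For YDL218W the log2 change was -3.59 in fhf1, compared with -3.50 for fhf2 and -3.83 for fhf3, and for SPG4 the 3 values in the same order were -3.59, -3.87 and -4.30. SDH9 had -2.86, -2.66 and -5.16. PUT1 rose by 1.56, 1.20 and 1.61. The arrays of fhf3 had medians of 12.09, 12.13 and 12.45, below the wild-type mean, and this adds to each of its falls as deposited.

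Against fhf2, 18 genes (0.312%) differed in fhf1, 8 (0.139%) higher and 10 (0.173%) lower, and 97 (1.68%) after centring. Leaving out replicates 1, 2 and 3 of fhf1 gave 0, 14 and 30 genes, and leaving out replicates 1, 2 and 3 of fhf2 gave 3, 8 and 2. Of the 154 genes, 11 differed from fhf2. Among the 11, the difference of fhf1 minus fhf2 was -1.15 for HXT3 (adjusted p = 0.0125), -1.19 for CLN2 (adjusted p = 0.0124) and -1.17 for REC114 (adjusted p = 0.0125). Outside the 11, HXT13 was 1.62 higher in fhf1 than in fhf2 (limma's adjusted p = 2.56e-05), and 1.68 higher after centring. Its log2 changes against wild type were 0.08 in fhf1 (not called), -1.54 in fhf2 and -2.01 in fhf3 (-1.63 after centring).

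Against fhf3, 1967 genes (34.1%) differed, 1700 (29.5%) higher and 267 (4.63%) lower in fhf1. That split follows the array medians, which were on average 0.389 higher in fhf1 than in fhf3: after centring 1356 genes (23.5%) were higher and 1450 (25.1%) lower. Differences from fhf3 are therefore given as deposited and, in brackets, after centring. FMP16 was 3.82 (3.43) and HBT1 3.57 (3.18) higher in fhf1 than in fhf3, with log2 changes against wild type of -1.11 and -1.04 in fhf1 and -4.93 and -4.61 in fhf3. For HXK2 the difference was -2.65 (-3.03), with changes of -1.57 in fhf1 and 1.07 in fhf3. It was -1.80 (-2.19) for RPS22A and -1.77 (-2.16) for SLX9, a ribosome assembly factor. The count of 1967 was 988 without replicate 1 of fhf1, 3198 without replicate 2 of fhf1, and 1206 and 1197 without replicates 1 and 2 of fhf3. Of the large-subunit ribosomal protein genes 34 of 78 were lower in fhf1 than in fhf3 and none differed from fhf2. After centring 75 of the 78 were lower than in fhf3.

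In 6 genes (0.104%) fhf1 differed from wild type and, in the same direction, from both other mutants. PDC5, CHA1 and YBR072C-A, an uncharacterised gene, were higher in fhf1, and IMD3, PCL1 and ELO2 were lower. PDC5 rose by 1.44 in fhf1 and had changes of 0.32 in fhf2 and -0.53 in fhf3, neither of them called. It was 1.12 above fhf2 (adjusted p = 0.0159) and 1.98 (1.59) above fhf3. IMD3 fell by 1.78 in fhf1 and had -0.64 in fhf2 and 0.31 in fhf3. PCL1 fell by 1.73 in fhf1 and had -0.54 and -0.41 in the others. ELO2 fell by 1.38 in fhf1 and had -0.26 and -0.35. YBR072C-A had 11.83, 10.59 and 11.42 in fhf1 and 9.51, 9.77 and 9.60 in wild type. It rose by 1.65 in fhf1 and fell by 1.51 in fhf3 (log2 change after centring -1.14). CHA1 rose by 1.06 in fhf1, had 0.00 in fhf2 and fell by 2.05 in fhf3 (log2 change after centring -1.68). After centring the same 6 were among 48 such genes. None of the 6 stood in all 3 tests when replicate 1 of fhf1, replicate 1 of fhf2 or replicate 3 of fhf2 was left out.

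**Figure D5:**
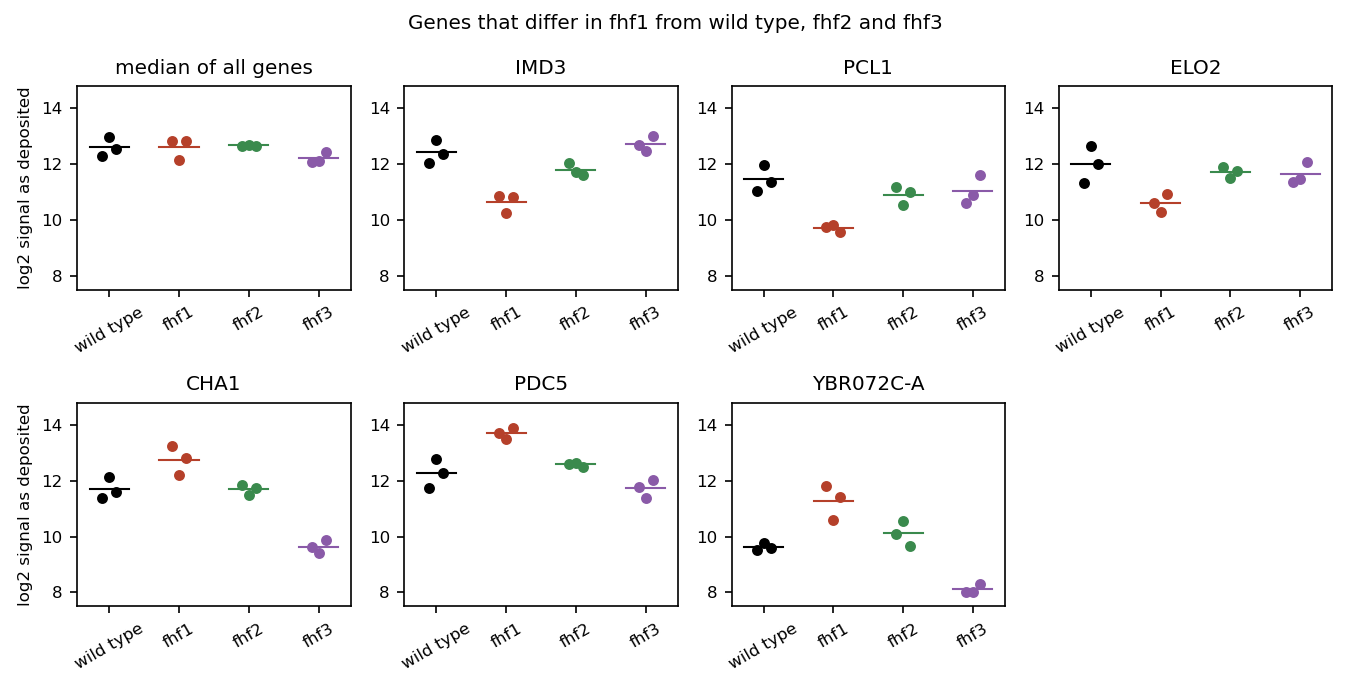
Log2 signal as deposited (vertical axis) in the 3 cultures of each of 4 strains, with the mean as a line, for the median of all genes (first panel) and the 6 genes in which fhf1 differed from wild type, fhf2 and fhf3. The array medians lie between 12.09 and 12.98. IMD3, PCL1 and ELO2 are lowest in fhf1, and CHA1, PDC5 and YBR072C-A are highest there.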

How the data were processed

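Per the labels' protocols, mRNA was purified with oligo(dT), copied to double-stranded cDNA, labelled with Cy3 and hybridised to 1-colour NimbleGen arrays whose probes follow the S288C genome. limma is named, without a version, per the submitters' processing notes. Neither the labels nor the files state the background correction, the probe summary or the genome build. Deposited by the authors were log2 signals per gene and array, whose medians differ between arrays, and a table of log2 fold changes, t scores and p-values against a 2-fold threshold. Group means of the array values gave the deposited log2 fold changes within 4.3e-08.

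Here limma 3.58.1 in R 4.3.3 was fitted to the array values as deposited, with 4 group means over 12 arrays and no covariate, and p-values were Benjamini-Hochberg adjusted over 5769 genes. Another 8 genes have a deposited fold change and no array values and were not tested. The plan named the values as deposited as the main fit and centring as an alternative. Both counts were known when this order was kept, after the centred fit had for a time been taken as main, and both are printed. Other alternatives were quantile normalization, leaving out the 25% dimmest genes, a replicate block, 6 arrays only, an intensity trend, each gene's own variance and leaving out each array. Cyclic loess was added after seeing the data. Both fits were tested on simulated data. The noise there was drawn for each gene separately, without the signal trend or the deviations shared across genes on the real arrays. That test therefore does not bear on the counts found here. No depth exists for arrays, and 3 arrays per group limit the precision.

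The members and the 57 gene lists (1467 measured genes) were chosen with earlier results of these data known. The rule named, among called genes whose groups do not overlap, the 12 largest changes in each direction, up to 4 per direction and list, every gene of the maltose, hexose transporter and kinase lists, and up to 4 of the largest differences per direction from fhf2 and fhf3. FIG1, PRM1, NHP2, SPS1, STE3, MF(ALPHA)1, YHR022C and the genes named as called after centring fall outside it and were chosen after their values were seen, STE3 and MF(ALPHA)1 as listed markers. Names come from RefSeq's R64 table, in which 5763 genes were found and 6 were not.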

Additional observations from a re-analysis of the deposited data

Results flagged for a closer look

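The genes below hold up to 4 of the largest direct differences in each direction between fhf1 and another mutant, among genes that also changed in fhf1 against wild type. Higher than in fhf2 there were 3 such genes. Each was picked because a test of the difference itself passed at an adjusted p under 0.05. Values are log2 differences on the arrays as deposited, fhf1 minus the other mutant.

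Against fhf2, YBR072C-A was 1.16 higher, PDC5 1.12 higher and CHA1 1.06 higher. Lower than in fhf2 were CLN2 (-1.19), PCL1 (-1.18), REC114 (-1.17) and HXT3 (-1.15). Each of these 7 calls was lost when at least 1 fhf1 or fhf2 culture was left out, CHA1 also with a replicate block and with an intensity trend, and all 7 held after centring. Against fhf3, with values after centring in brackets, FMP16 was 3.82 (3.43), HBT1 3.57 (3.18), YBR072C-A 3.17 (2.78) and CHA1 3.12 (2.73) higher. Lower than in fhf3 were HXK2 at -2.65 (-3.03), IMD3 at -2.10 (-2.48), RPS22A at -1.80 (-2.19) and SLX9 at -1.77 (-2.16). These 8 held after centring, quantile normalization, cyclic loess, a replicate block and an intensity trend, and without any 1 fhf1 or fhf3 culture. Those of the 8 that were tested without the dimmest genes held there too. Whether the 7 differences from fhf2 and the 8 from fhf3 hold with each gene's own variance was not tested. The same is true of a fit to the compared arrays alone.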

How the results depend on the processing

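The count of 154 genes against wild type (34 higher, 120 lower) was 973 after centring (422 and 551), 960 after quantile normalization (446 and 514) and 927 after cyclic loess (334 and 593), an alternative chosen after seeing the data. It was 75 without the dimmest 25% of genes, 72 with the 6 arrays alone and 16 (1 higher, 15 lower) with each gene's own variance, and 109 to 236 without single cultures. The 11 genes of the 2-fold test became 19 after centring, 20 after quantile normalization, 21 after cyclic loess, 7 with the 6 arrays alone and 5 to 17 without single cultures. None of the 11 remained among genes tested without the dimmest 25%, and the count there was 0. Against fhf2, 18 genes became 97 after centring, 91 after quantile normalization, 102 after cyclic loess and 0 to 30 without single cultures. Against fhf3, 1967 genes became 988 to 3198 without single cultures. Apart from fewer genes or arrays tested, the cause of these moves was not tested. Among the 186 genes examined, no fold change called in the main fit or in an alternative reversed its sign. Genes called in neither were not counted, and some values near 0 did change sign. HXT2, for example, had -0.03 as deposited and 0.04 after quantile normalization. Of the 154 calls none was lost after centring, quantile normalization or cyclic loess, 6 were lost with an intensity trend and 138 with each gene's own variance. With a replicate block 144 genes were called against wild type, 11 past 2-fold, 13 against fhf2 and 1778 against fhf3. The deviations of same-numbered fhf1 and wild-type cultures correlated across genes at 0.449, 0.086 and -0.241, so the numbers were not taken to pair the cultures. Not every culture correlated best with its own number. The number of arrays, 3 per group, limits the precision.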

Other observations

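Of the lists not described above, few members were called on the values as deposited. ATF2, an alcohol acetyltransferase that makes acetate esters, rose by 0.90 and joins PDC5 as the 2 rises among 17 genes of the Ehrlich pathway and aroma, and its call was lost without 4 of the 6 cultures. After centring 4 of the 17 were called higher and 2 lower. DIN7, a DNA-damage-induced nuclease of mitochondria, rose by 1.33 and TOS4, a regulator bound at G1/S promoters, fell by 1.22 among 27 genes of DNA damage and ribonucleotide reductase, and both held without any 1 culture. After centring 3 of the 27 were called higher and 4 lower. SAM4, which recycles methionine, fell by 1.18 among 27 genes of sulfate and methionine, and PHO90, a low-affinity phosphate carrier, fell by 0.97 among 23 phosphate genes. Both falls were lost without replicate 2 of fhf1 and without replicate 2 of wild type, and after centring 7 sulfate and methionine genes were called lower and 2 phosphate genes in each direction. ELO2 was the only call among 17 fatty acid synthesis genes, where after centring 4 were called higher and 1 lower, and CHA1 the only one among 8 of serine, threonine and glycine breakdown, where 3 were called higher. No gene was called by limma among 35 translation factors, 20 tRNA synthetases, 18 growth regulators, 13 glycerol genes, 23 autophagy and vacuolar protease genes, 22 sphingolipid genes, 30 anaerobic genes and 33 iron genes. In that order 1, 2, 0, 3, 1, 0, 5 and 4 had an unadjusted p under 0.05. After centring the counts higher and lower were 0 and 2, 0 and 3, 1 and 0, 5 and 1, 3 and 1, 2 and 1, 6 and 2, and 6 and 2. Over all genes 7.31% were called higher and 9.55% lower after centring.

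Genes known by a systematic name only made up 10 of the 34 that rose (29.4%) and 13 of the 120 that fell (10.8%), against 9.8% of all genes tested. Those that rose include YBR072C-A (1.65 higher), YMR244W (1.45 higher) and YBR284W (1.19 higher). Of the named genes that rose with no place in the lists, EFM6, a lysine methyltransferase of elongation factor 1A, rose by 1.34 in fhf1, 1.36 in fhf2 and 1.45 in fhf3. COS10, of a subtelomeric family whose members resemble each other, rose by 1.30, and the PAU genes PAU10, PAU11 and PAU14, which are near-identical, rose by 0.91, 0.89 and 0.88. PMA2, a minor plasma membrane proton pump, fell by 1.64, and FMP45, an eisosome protein, fell by 1.81. TEC1, a regulator of filamentous growth, fell by 1.42 in fhf1 and had -0.38 in fhf2 and -0.92 in fhf3. These genes were named after their values were seen.

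Neighbours on a chromosome were both called in 12 pairs, in 10 of them in the same direction. The share over all neighbouring genes was not computed, so these counts say nothing about neighbours as such. Of the 154 calls 120 were falls, which by itself favours pairs in the same direction. The overlapping ECM12 and YHR022C, whose signals cannot be told apart, are among the 10. The pairs include DAL7 with DAL3 (1.21 and 1.95 higher), ALD3 with ALD2 (1.08 and 1.48 lower) and HBT1 with FMP45 (1.04 and 1.81 lower).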
